A study of Homo sapiens with 7 samples.

Results

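DNA topoisomerases are enzymes that cut and rejoin DNA to relieve the twisting that arises when the helix is copied or transcribed. Type I enzymes such as TOP1 cut 1 strand, and type II enzymes such as TOP2A and TOP2B cut both and pass another duplex through the gap. TOP2A is known as the form of dividing cells, needed to part sister chromosomes, whereas TOP2B is also made in cells that have stopped dividing. TOPORS is a TOP1-binding protein that acts as a ligase for both ubiquitin and SUMO. The 4 genes TOP1, TOP2A, TOP2B and TOPORS were picked by symbol from the 14294 genes of the table, TOPORS and TOP2A because an earlier comparison of these libraries had placed them high in every targeted library. The difference of these 2 genes from the control is therefore given as a description. The 4 genes were represented by 60 of 386982 isoforms, and all 4 were among the 7877 genes with a mean of at least 5 TPM that were compared. TPM is here the reads of a gene scaled to a common library total, with no term for length.

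The libraries came from HUES66 cells, a human embryonic stem cell line long established in culture, and were read by PacBio long-read sequencing of polyadenylated RNA. There was 1 control library, of genotype WT, and there were 6 libraries of genotype RBFOX2 isoform KD, made with Cas13d, an RNA-guided nuclease that cleaves RNA. Their labels pair a G number with an id: 178147 with G3, 178149 with G5, 178136 with G11, 178135 with G12, 178145 with G13 and 178146 with G14. All 7 cultures, the control included, carry the label piggyBac, received doxycycline at 1 µg/ml and were taken at 24 h. The labels do not say whether the control held the nuclease or a guide, or whether a culture was 1 clone. With 1 library per group no difference has a replicate check, and intervals cover counting error only.

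The control was the shallowest library, with 16801842 reads, G12 had 26678536, and a floor of 3 reads was worth 0.112 to 0.179 TPM. RBFOX2, the targeted gene, was at 107 TPM in the control, 42.1 (G3), 96.8 (G5), 82.9 (G11), 88.5 (G12), 55.9 (G13) and 106 (G14), so its total was close to that of the control in G14. All 7 pluripotency markers listed were expressed. They did not differ in 1 direction: POU5F1 (915 TPM in the control against 377 to 588 TPM) and NANOG were lower in all 6 G libraries, L1TD1, DPPA4 and TDGF1 were higher in all 6, and LIN28A and DNMT3B were mixed. Of all genes compared, 20.5% were lower in all 6 and 21.1% were higher in all 6. The neural, endoderm and mesoderm markers in the table held at most 0.238 TPM. The fibroblast collagen genes COL1A1 and COL1A2 were at 16.4 and 11.3 TPM in the control. Across G libraries they ranged from 1.58 to 30.3 TPM and from 2.63 to 13.3 TPM. Both were below the control in G11, G12, G13 and G14, with lowest log2 ratios of -3.03 and -1.91 in G13. In G5 both were above it (0.02 and 0.22). In G3 COL1A1 was above the control (0.86) and COL1A2 below it (-0.43). The part of these markers in the results below was not tested. The table holds no isoform without a control read. Forms made only in a G library are thus uncounted, which can only lower the G totals. The share that a listed isoform holds in a G library can be raised by it.

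TOPORS had 45 reads in the control, or 2.68 TPM, which was the lowest of its 7 values. It was at 11.7 TPM in G3, 20.4 (G5), 22.9 (G11), 21.7 (G12), 28.1 (G13) and 35.9 (G14). No G library overlapped the control, whose exact Poisson interval was 1.95 to 3.58 TPM. The ratio to the control ran from 4.35-fold in G3 (95% interval 3.14 to 6.15) to 13.4-fold in G14 (9.93 to 18.6). Among the G libraries the level differed 3.08-fold between the lowest, G3, and the highest, G14 (2.64 to 3.61). The pair was picked after sorting, which the interval does not cover, and its values were among those that chose the gene. In the order of levels, G5, G12 and G11 followed each other without a step beyond counting error, while G3 below them and G13 and G14 above them were each set apart.

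TOP2A was at 4.34 TPM in the control, from 73 reads. It was at 5.60 TPM in G3, 18.2 (G5), 22.8 (G11), 25.4 (G12), 33.3 (G13) and 39.0 (G14). The G libraries were thus of unequal kind: G3 lay beside the control, at 1.29-fold with an interval that held 1 (0.944 to 1.77), and the other 5 were at 4.18-fold (G5, 3.26 to 5.42) to 8.97-fold (G14, 7.05 to 11.6). The step from G3 to the next library, G5, was 3.24-fold (2.60 to 4.06), and G11 and G12 were the only neighbours above it that did not differ beyond counting error. From the lowest G library, G3, to the highest, G14, a pair picked after sorting, the level differed 6.95-fold (5.64 to 8.65).

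TOP2B was at 6.73 TPM in the control, 9.24 (G3), 8.60 (G5), 6.34 (G11), 10.1 (G12), 10.8 (G13) and 15.6 (G14). G14 stood above all others, at 2.31-fold of the control (1.86 to 2.89), and G11 did not differ from the control beyond counting error (0.942-fold, 0.727 to 1.22). G3, G5, G12 and G13 were higher than the control by 1.28-fold to 1.61-fold, with intervals above 1. TOP1 held the narrowest range, at 30.5 TPM in the control, 35.2 (G3), 30.8 (G5), 29.2 (G11), 27.6 (G12), 29.5 (G13) and 35.9 (G14). The ratio of its total was between 0.904-fold (G12, 0.806 to 1.01) and 1.18-fold (G14, 1.05 to 1.32), and its intervals held 1 in G5, G11, G12 and G13.

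**Figure D1:**
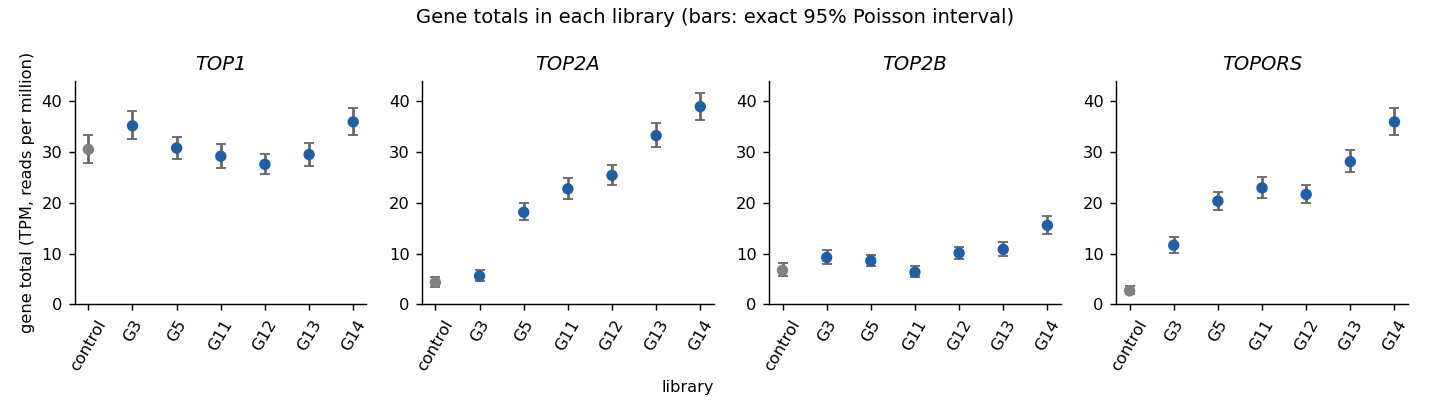
Gene totals in TPM (vertical axis) of TOP1, TOP2A, TOP2B and TOPORS in each of the 7 libraries (horizontal axis), with the control in grey, the G libraries in blue and bars for the exact 95% Poisson interval. TOPORS was lowest in the control at 2.68 TPM and highest in G14 at 35.9 TPM, TOP2A in G3 (5.60 TPM) lay beside the control (4.34 TPM), and TOP1 stayed between 27.6 and 35.9 TPM.

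Set against all genes compared, the members at least 2-fold above the control were TOPORS alone in G3, where 1.89% of genes passed, TOPORS and TOP2A in G5 (0.533% of genes), G11 (0.724%), G12 (0.546%) and G13 (1.04%), and these with TOP2B in G14 (3.97%). None of the 4 was at least 2-fold below the control in any G library, where the share of genes was 5.14% (G3), 10.1% (G5), 10.4% (G11), 8.79% (G12), 14.6% (G13) and 18.9% (G14). TOPORS was at least 2-fold higher in all 6 G libraries, as were 0.178% of genes, and nothing is read from this since the gene was chosen for it. None of the 4 was at least 2-fold lower in all 6 (0.8% of genes). By its median log2 ratio over the 6 G libraries, 2.84, TOPORS came first of the genes higher in all 6. CTR9 (2.56) and TOP2A (2.34) followed. The median log2 ratio was 0.49 for TOP2B and -0.02 for TOP1.

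**Figure D2:**
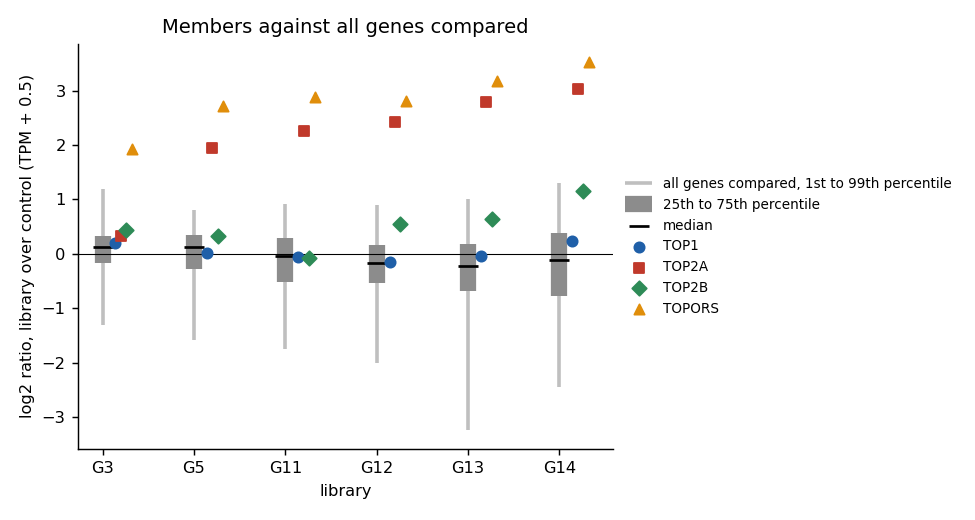
Log2 ratios of each G library to the control on the log2(TPM + 0.5) scale (vertical axis) for the 4 genes (coloured points), beside the 7877 genes compared (grey bars for the 1st to 99th and the 25th to 75th percentile, black dash for the median). TOPORS lay above the 99th percentile in all 6 libraries, TOP2A in all but G3, and TOP1 between -0.14 and 0.23.

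The 4 mRNAs were longer and poorer in G and C than most of the genes compared. Their length and GC content, as means over reference isoforms weighted by TPM, were 3738 nt and 42.2% for TOP1, 5758 nt and 39.1% for TOP2A, 5381 nt and 39.5% for TOP2B, and 4097 nt and 39.7% for TOPORS, which put TOP2A at percentile 91.5 of length. Genes of the longest of 5 length bins, which holds TOP2A and TOP2B, had median log2 ratios from -0.20 in G13 to 0.22 in G5. With the trend of length and GC content removed, TOPORS remained at 1.78 (G3) to 3.13 (G14) and TOP2A at 0.20 (G3) to 2.67 (G13). TOP2B in G14 was then at 0.78 in place of 1.15 and was no longer past 2-fold. Because the control is a single library, a high level in the G libraries and a low level in the control cannot be told apart. Taken against the median of the other 6 libraries instead, TOPORS was at a log2 ratio of -0.91 in G3 and -0.13 in G5, and TOP2A at -2.01 in G3 and -0.40 in G5.

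The upstream sequences of TOP2A and TOPORS are shown because both genes were chosen for their level in the G libraries, although in G3 TOPORS alone lay beyond counting error of the control. Both are from RefSeq (GRCh38.p14), read 5′ to 3′ on the minus strand, and stop at the base before the first base of the main isoform in the table. The stretches are chr17:40417903-40418146 for TOP2A and chr9:32552612-32552836 for TOPORS. Capitals mark matches to CCAAT and TTTGAA on either strand, which do not overlap each other.
TOP2A: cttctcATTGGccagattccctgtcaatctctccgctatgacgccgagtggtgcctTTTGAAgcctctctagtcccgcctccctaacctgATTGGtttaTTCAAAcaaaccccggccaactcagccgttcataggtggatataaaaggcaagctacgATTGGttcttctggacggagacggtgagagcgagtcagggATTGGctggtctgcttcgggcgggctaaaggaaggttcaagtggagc
TOPORS: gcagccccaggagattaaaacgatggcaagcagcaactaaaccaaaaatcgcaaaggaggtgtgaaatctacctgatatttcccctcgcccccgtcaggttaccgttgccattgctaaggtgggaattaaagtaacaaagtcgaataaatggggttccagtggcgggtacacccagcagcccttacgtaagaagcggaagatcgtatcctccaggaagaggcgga
CCAAT is the box bound by the factor NF-Y, and TTTGAA is a form of the element found in cell cycle promoters. The TOP2A stretch held 4 matches to CCAAT, all on the opposite strand, and 2 to TTTGAA. The TOPORS stretch held 0 of either. Of 35116 RefSeq promoters, the 250 bases before the start held at least 1 match to CCAAT in 32.01% and at least 3 in 2.93%, and at least 1 match to TTTGAA in 13.3%. The same 250 bases held 0 and 0 matches for TOP1, and 2 and 1 for TOP2B. Of the unmarked motifs, TATAAA had 1 match in the TOP2A stretch and 0 in the TOPORS stretch, and 10.7% of promoters held it. TGACGT had 1 match in the 250 bases of TOP1 and 1 in those of TOP2B (7.10% of promoters). CCGGAAG had 0 for all 4 genes (8.52% of promoters). These matches describe letters and say nothing of binding.

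The narrow range of the TOP1 total was made up of isoforms that differed in opposite directions. TOP1 lies on the plus strand of chromosome 20 at 41028818 to 41124487 (GRCh38, GENCODE 29) and has 21 annotated exons. It was represented by 18 isoforms, of which 4 held at least 5% of its reads on average and 97.9% together. The full-length isoform ENST00000361337.3 spans 41028812 to 41124485. A hashed isoform, that is, one without a reference ID, begins at the same base and stops at 41098337, the last base of exon 11 (41098215 to 41098337), and is called the early-ending isoform here. A further 2 hashed isoforms begin inside the gene and reach its 3′ end. They start at 41101209, the first base of exon 13, and at 41112780, within 2 bases of the first base of exon 14 (41112782), and are called the exon 13 and exon 14 isoforms.

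The coding sequence at these 3 exon edges shows where the isoforms stop or begin (GENCODE 29, ENST00000361337.2, plus strand, 30 bases on each side of the edge). Capitals mark the bases that belong to the shortened isoform and lower case the exon beyond it.
Early-ending isoform, exon 11 into exon 12: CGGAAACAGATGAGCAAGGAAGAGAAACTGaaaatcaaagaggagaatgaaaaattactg
Exon 13 isoform, exon 12 into exon 13: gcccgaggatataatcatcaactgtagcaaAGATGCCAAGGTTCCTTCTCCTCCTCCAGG
Exon 14 isoform, exon 13 into exon 14: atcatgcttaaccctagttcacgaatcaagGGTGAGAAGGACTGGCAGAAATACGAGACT
After the end of exon 11, 17 of the next 30 bases of the mRNA are A. The active-site tyrosine of TOP1 lies near the carboxyl end of the protein. The early-ending isoform covers 975 of the 2295 coding bases (42.5%), all from the 5′ side, whereas the exon 14 isoform covers 987 (43.0%) and the exon 13 isoform 1132 (49.3%) from the 3′ side. These lengths assume that the isoforms follow the annotated exons between their ends, since the table gives ends only.

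Full-length TOP1 was at 7.44 TPM in the control, 13.6 (G3), 9.23 (G5), 4.42 (G11), 2.55 (G12), 2.33 (G13) and 4.30 (G14). Relative to the control it was higher in G3 (1.82-fold, 1.46 to 2.28), within counting error in G5 (1.24-fold, 0.995 to 1.55) and lower in the other 4, down to 0.313-fold in G13 (0.222 to 0.434). The early-ending isoform was at 9.11 TPM in the control, 10.4 (G3), 5.19 (G5), 2.496 (G11), 3.79 (G12), 2.81 (G13) and 2.10 (G14). It was within counting error of the control in G3 and lower in the other 5.

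The exon 14 isoform went the other way, from 7.20 TPM in the control and 6.28 (G3), to 9.86 (G5), 14.98 (G11), 15.2 (G12), 16.2 (G13) and 20.7 (G14). It was at 2.88-fold of the control in G14 (2.35 to 3.55) and at 0.871-fold in G3 (0.668 to 1.14). The exon 13 isoform differed less, with 5.18 TPM in the control against 3.81 (G3) to 8.45 (G14) across G libraries. In G11, G12, G13 and G14 the 2 internal-start isoforms were above the control, though that of exon 13 in G12 was within counting error (1.11-fold, 0.852 to 1.47), and the 2 isoforms with the annotated 5′ start were below it.

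**Figure D3:**
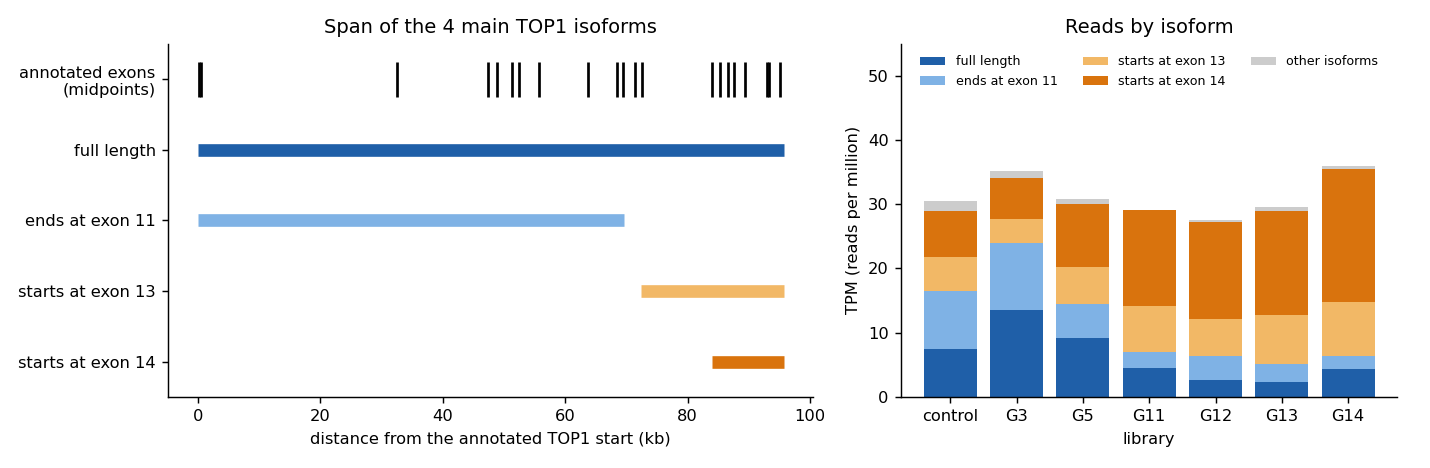
Left, the span of the 4 main TOP1 isoforms by distance from the annotated start in kb, under ticks for the midpoints of the annotated exons. Right, TPM by isoform in each library (stacked bars, horizontal axis the libraries): the full-length isoform was at 13.6 TPM in G3 and 2.33 TPM in G13, and the exon 14 isoform at 20.7 TPM in G14, with the total between 27.6 and 35.9 TPM.

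As a share of TOP1 reads, isoforms starting inside the gene and reaching its 3′ end held 40.7% in the control (Wilson 95% interval 36.6 to 45.0) and 28.7% in G3 (25.3 to 32.3). They held 50.8% (G5, 47.3 to 54.3), 76.2% (G11), 76.1% (G12), 80.7% (G13) and 81.1% (G14, 78.2 to 83.8). G3 lay below the control and the other 5 above it, with no overlap of intervals. Isoforms reaching from within 500 bases of the annotated start to within 500 bases of the annotated end, called full-span here, held 24.8% in the control, 38.5% in G3 and 29.97% in G5, and 7.88% (G13) to 15.1% (G11) in the last 4 libraries.

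Over 7876 genes the median change of the full-span share was 0 points in each G library, and that of TOP1 differed in sign between them. It was 13.8 points in G3 (percentile 98.8) and 5.22 in G5 (percentile 93.9), and -9.62 (G11), -15.5 (G12), -16.9 (G13) and -12.8 (G14) points, at percentiles 0.787 to 1.498, in the others. Starts within 10 bases of the 5′ edge of a later exon, and over 500 bases from the gene start, held 1.57% (G3) to 2.29% (G14) of the reads of the genes compared. The share of such reads was at least 20 points above the control in 0.216% (G11), 0.381% (G12), 0.927% (G13) and 0.457% (G14) of genes. TOP1 passed this in those 4 libraries, by 35.5 to 40.6 points, and in G3 and G5, where 0.0127% of genes passed, it did not (-11.9 and 10.2 points). A fall of at least 20 points in the full-span share was found in 0.0127% of genes in G5, 0.292% (G11), 0.482% (G12), 1.03% (G13) and 0.584% (G14), and none of the 4 members was among them.

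TOP2B also had internal-start isoforms, and no reads of the early-ending kind. The gene occupies 25597905 to 25664907 of chromosome 3 (minus strand) and was represented by 19 isoforms, 4 of which held 95.7% of its reads on average. Both ENST00000435706.6 (25597905 to 25664926) and ENST00000264331.9 (25597984 to 25664937) are full length. The other 2 of the main isoforms begin at 25645456, 1 base before exon 2 as ENST00000435706.6 has it, and at 25643788, 4 bases before exon 3. The full-length pair is known to encode proteins that differ by a short insert, and the GENCODE 29 models (ENST00000264331.8 in place of version 9) differ within the coding sequence by 15 bases at the 5′ edge of exon 2 (25645456 to 25645470). They are shown with 21 bases on each side, in capitals where only the longer form has them.
ENST00000264331: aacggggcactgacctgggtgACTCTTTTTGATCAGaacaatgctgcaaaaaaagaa
ENST00000435706: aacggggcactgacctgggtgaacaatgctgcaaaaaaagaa
Of the reads of this pair, the form with the 15 bases held 31.7% in the control (21.3 to 44.2, of 60 reads), 29.1% (G3), 25.5% (G5), 35.8% (G11), 32.3% (G12), 17.3% (G13, 11.2 to 25.7) and 15.6% (G14, 10.7 to 22.1). G13 and G14 were lowest. In G14 the shorter form, ENST00000435706.6, was at 2.54-fold of the control (1.78 to 3.71) and the longer, ENST00000264331.9, at 1.01-fold (0.532 to 1.96). The control share rests on 60 reads.

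ENST00000435706.6 was at 2.44 TPM in the control, 4.65 (G3), 2.99 (G5), 1.63 (G11), 3.22 (G12), 3.77 (G13) and 6.21 (G14), so that G3 and G14 were the highest. The exon 2 start was at 1.13 TPM in the control and 1.46 (G3), then 2.51 (G5), 2.30 (G11), 3.11 (G12), 3.11 (G13) and 4.63 (G14), at 4.10-fold of the control in the last (2.49 to 7.09). The exon 3 start had its highest values in G13 (3.03 TPM) and G14 (3.25), against 1.01 in the control and 0.840 in G3. Internal starts reaching the 3′ end together held 37.2% of TOP2B reads in the control (28.8 to 46.4), 24.8% in G3 (18.9 to 31.96), and 50.6% (G14) to 57.1% (G13) in the other 5. G3 was again the lowest of the 7, as for TOP1, though its interval overlapped that of the control. The gain at exon edges passed 20 points in G11 (22.6) and G13 (23.9), as it did for 0.216% and 0.927% of genes. It was 17.9 to 19.8 points in G5, G12 and G14.

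TOPORS occupies 32540544 to 32552553 of chromosome 9 (minus strand) and has 3 annotated exons, the last of which holds most of its coding sequence. Its main isoform ENST00000360538.7 (32540547 to 32552611) held 69.1% of reads on average, and a hashed isoform beginning at 32550977, 9 bases before exon 2 (32550774 to 32550968), held 29.8%. The annotated start codon is the last 3 bases of exon 1, so the second isoform covers 3132 of the 3135 coding bases and lacks that codon. Both were higher in every G library. ENST00000360538.7 was at 1.96 TPM in the control, 6.72 (G3), 13.9 (G5), 16.1 (G11), 15.5 (G12), 20.4 (G13) and 25.3 (G14). The exon 2 start was at 0.536 TPM in the control, from 9 reads, and at 4.93 (G3), 6.33 (G5), 6.82 (G11), 6.18 (G12), 7.72 (G13) and 10.6 (G14).

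In TOPORS it was G3 that stood apart in shape. Internal starts held 42.3% of TOPORS reads in G3 (35.8 to 49.1) and 27.5% (G13) to 31.1% (G5) in the other G libraries, whose intervals overlapped each other and did not reach that of G3. In the control they held 22.2% (12.5 to 36.3), an interval that overlapped all 6. TOPORS passed 20 points in G3 (20.1) in the gain at exon edges, where it was the only 1 of 7877 genes to do so (0.0127%). It also passed 20 points there in the loss of the full-span share, as did 0.114% of genes. The control value of both rests on 45 reads. Against the other G libraries, the share of internal starts in G3 was thus larger for TOPORS and smaller for TOP1 and TOP2B. By level, the TOPORS internal starts were lowest in G3 among the G libraries, at 4.93 TPM against 6.18 (G12) to 10.6 (G14).

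**Figure D4:**
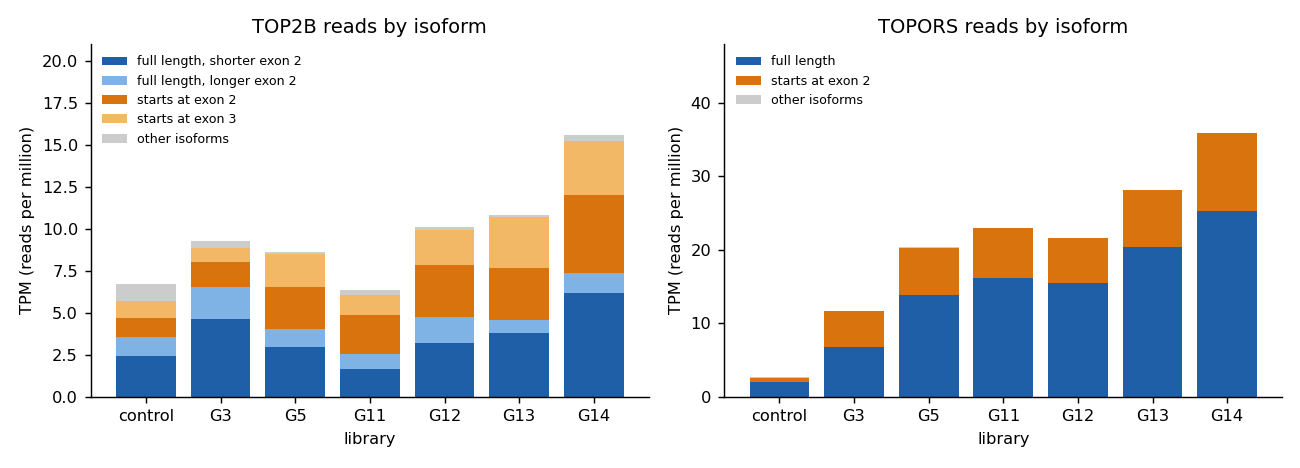
TPM by isoform (stacked bars) in each library (horizontal axis) for TOP2B (left) and TOPORS (right), with full-length isoforms in blue, isoforms starting at a later exon in orange and all others in grey. The TOPORS exon 2 start was at 4.93 TPM in G3 and 10.6 TPM in G14, and the TOP2B exon 2 start at 1.46 TPM in G3 and 4.63 TPM in G14.

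No such isoform was listed for TOP2A. An isoform needed a control read to be listed and TOP2A had 73 there, so internal-start forms made only in the G libraries could not appear, and the 0% of those libraries says nothing of them. The gene occupies 40388516 to 40417950 of chromosome 17 (minus strand), and all of its 18 isoforms were full-span. ENST00000423485.6 (40388520 to 40417902) held 86.6% of reads on average. It held 60.3% in the control (48.8 to 70.7), 84.0% (G3, 75.6 to 89.9), 91.8% (G5), 91.1% (G11), 92.3% (G12), 92.9% (G13) and 93.9% (G14). The control was the lowest, with the other 29 of its 73 reads spread over 17 hashed isoforms, 13 of them with 1 read. Because isoforms absent from the control are not listed, other single-read forms of the G libraries are missing from their totals. This isoform was at 2.62 TPM in the control and 4.71 in G3, or 1.80-fold (1.23 to 2.65), so that G3 lay above the control by the main isoform though not by the total. It was at 36.6 TPM in G14, or 13.96-fold (10.3 to 19.4).

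**Figure D5:**
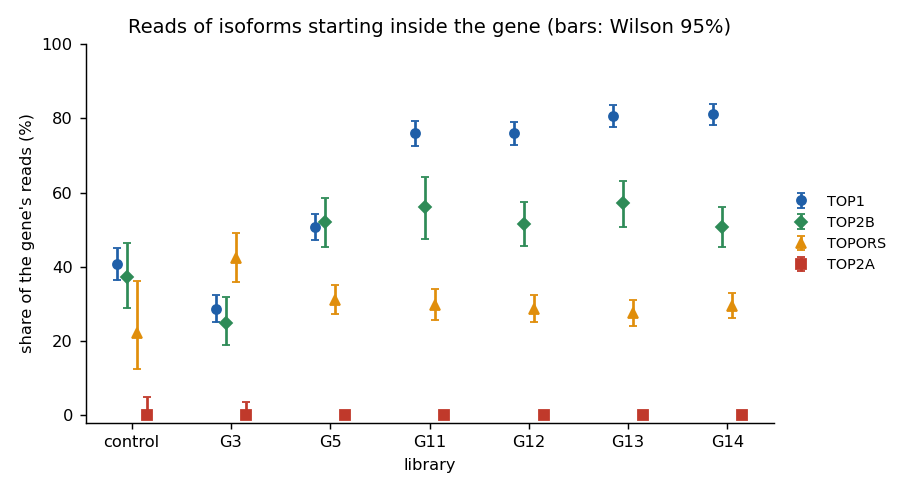
Share of each gene's reads, in percent (vertical axis), from isoforms that start inside the gene and reach its 3′ end, by library (horizontal axis), with Wilson 95% intervals. TOP1 went from 28.7% in G3 to 81.1% in G14, TOP2B was lowest in G3 at 24.8%, TOPORS was highest in G3 at 42.3%, and TOP2A had none among its listed isoforms.

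A few loci overlap the members. SMIM27, on the opposite strand at the start of TOPORS, was at 0.7497 to 1.37 TPM, and the locus ENSG00000288684, which overlaps TOPORS on the same strand, was at 1.297 to 2.48 TPM. Neither reached the level of TOPORS in a G library. PLCG1-AS1, opposite to TOP1, had at most 4 reads. The TOP1 pseudogenes TOP1P1 and TOP1P2 were looked up and had no rows, and how reads shared with them were assigned is not stated.

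The 3 genes with a profile most like that of each member were found by the root mean square difference of centred log2 values over the 7 libraries. For TOPORS they were CTR9 (0.17), a subunit of the PAF1 transcription elongation complex, LSG1 (0.38), a GTPase of ribosome assembly, and NAA35 (0.43), a subunit of an amino-terminal acetyltransferase. For TOP2A they were PNPLA8 (0.42), a phospholipase, IWS1 (0.43), an elongation factor, and RBBP8 (0.46), which acts in DNA end resection, and TOPORS came next (0.46). TOP2B was nearest to ZNF182 (0.16), SRP72 (0.18) and BIVM (0.18), and TOP1 to CCDC88A, CEP57L1 and LONP1 (each 0.06). Among the 7877 genes compared, TOP2B, the paralog of TOP2A, was the 1048th nearest to it, and TOP1 was the 3171st. All libraries and the single control are shared by these profiles. TOPORS and TOP2A were both chosen for their level against that control, so their closeness to each other draws on the values that chose them and supports nothing.

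Of 5 further topoisomerases, TOP1MT, TOP3A and TOP3B were compared, and TOP6BL and SPO11 had no rows. None was at least 2-fold higher in any G library, as 0.533% (G5) to 3.97% (G14) of all genes were. TOP3B, a type I enzyme that also acts on RNA, was at 11.2 TPM in the control against 4.69 to 12.6 TPM across G libraries. It was past 2-fold lower in G13 alone (log2 ratio -1.18), 1 of 3 beside 14.6% of all genes. TOP1MT, the mitochondrial enzyme, was at 78.9 TPM in the control against 78.7 to 105 TPM across G libraries. The median log2 ratio of the 3 was 0.30 in G3 and -0.88 in G13, beside 0.12 and -0.21 over all genes compared. Of the TOP3A partners BLM, RMI1 and RMI2, which dissolve crossed DNA strands with it, RMI2 in G14 was past 2-fold higher (1.09). This was 1 of 3 beside 3.97% of all genes.

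None of the 11 genes that repair trapped topoisomerases was at least 2-fold from the control in either direction in any G library. Of all genes compared, 0.533% (G5) to 3.97% (G14) were at least 2-fold higher and 5.14% (G3) to 18.9% (G14) lower. TDP1, which removes TOP1 from DNA ends, was at 151 TPM in the control against 161 to 208 TPM across G libraries. TDP2, which does so for type II enzymes, was at 181 TPM and 200.2 to 337 TPM. Their list had a median log2 ratio over the 6 G libraries of 0.27, beside -0.08 over all genes compared.

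Condensins and cohesin shape chromosomes alongside TOP2A. Of 14 listed genes, SMC3, a cohesin subunit, was at least 2-fold higher in all 6 G libraries, as were 0.178% of all genes. It was at 6.67 TPM in the control against 20.3 to 42.5 TPM in the others. The number of the 14 past 2-fold higher ranged from 1 in G3 and G12 to 4 in G14, beside 1.89%, 0.546% and 3.97% of all genes, and none was past 2-fold lower, as 5.14% (G3) to 18.9% (G14) of all genes were. NCAPH, a condensin subunit, was at 10.8 TPM in the control against 19.9 to 25.2 TPM across G libraries. SMC4, the partner of SMC2 in condensin, kept near the control (log2 ratios -0.25 to 0.03).

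TOP2A is commonly read as a marker of the G2 and M phases. Of 18 other genes of those phases listed, 15 were compared, and at least 2-fold higher values were found only for TPX2, a spindle factor, in G14 (log2 ratio 1.20; 1 of 15 beside 3.97% of all genes). Of the 15, 7 were higher in all 6 G libraries, beside 21.1% of all genes. AURKB, UBE2C and ASPM were lower in all 6, beside 20.5%. CCNB1, a mitotic cyclin, was at 1563 TPM in the control against 1618 to 2176 TPM across G libraries. CCNB2, another, was at 199.5 TPM in the control against 151 to 275 TPM, and was above the control in G3 alone. UBE2C, which tags mitotic proteins for destruction, was past 2-fold lower in G3, G5, G11 and G14, and AURKB, a mitotic kinase, in G5, G11 and G14. This was 1 of 15 in G3, beside 5.14% of all genes. It was 2 of 15 in G5, G11 and G14, beside 10.1%, 10.4% and 18.9%. The median of the list was 0.21 over the 6 G libraries, beside -0.08 over all genes compared. MKI67 and CENPE had no rows, and CENPF had 0.119 TPM in the control and was listed at 0 in the G libraries. In bulk RNA, more cells in a phase and more RNA per cell cannot be told apart.

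For TOPORS, 18 genes of the SUMO pathway were listed and 14 compared. In G14 PIAS1, a SUMO ligase, was past 2-fold higher (1.01), 1 of 14 beside 3.97% of all genes, and no gene was in the other 5. Past 2-fold lower were SUMO2 in G14 and SENP1, a SUMO protease, in G12, G13 and G14, or 1, 1 and 2 of the 14 beside 8.79%, 14.6% and 18.9% of all genes. SUMO2 was at 699 TPM in the control against 257 to 513 TPM across G libraries. Of the 6 partners and substrates of TOPORS, none was past 2-fold higher in any G library, as 0.533% (G5) to 3.97% (G14) of all genes were. H2AX, a histone variant, was past 2-fold lower in G11, G12, G13 and G14, with a lowest log2 ratio of -2.36. This was 1 of the 6 in each, beside 10.4%, 8.79%, 14.6% and 18.9% of all genes. NDUFB6, the neighbour of TOPORS, was lower in all 6 G libraries, as were 20.5% of all genes. It was at 88.9 TPM in the control against 38.7 to 79.0 TPM in the others, opposite in direction to TOPORS.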

How the data were processed

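Polyadenylated RNA of 7 HUES66 cultures, 1 control and 6 G libraries, was read as full-length cDNA joined into 8-fold arrays (MAS-Seq) on the Revio system, per the labels' protocols. The deposited table has, per the file headers, one count of full-length reads and one TPM value per isoform and library. The deposited TPM equals the deposited count divided by a constant per library to within 0.006, so it has no length term. The submitters' processing notes name minimap2 2.17 and GRCh38. The software that built isoforms and its filters are not given in the sources used here.

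Blank cells stand for 0. Gene totals (14294 genes) are sums over isoforms that share an Ensembl stem, and TPM was recomputed from counts. Log2 ratios are on the log2(TPM + 0.5) scale, which understates those of low genes, fold values are ratios of TPM with no pseudocount, and genes with a mean of at least 5 TPM were compared. Ratio intervals are exact (Clopper-Pearson), those of counts exact Poisson and those of shares Wilson, all at 95%. The table holds no molecular identifiers, so intervals cover counting error only. No test was run, since each group has 1 library and the difference from the control chose TOPORS and TOP2A. Starts are printed with 1 added, and isoform ends are uncertain by at least 1 base. Exons, lengths and GC content came from GENCODE 29 and promoters from RefSeq (GRCh38.p14). The ratio and interval code was tested on simulated data. Python 3.11.15, pandas 2.3.3, numpy 2.4.6 and scipy 1.17.1 were used.

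The genes named are the 4 members, their isoforms with at least 5% of reads on average, the listed pathway genes, and the 3 nearest profiles of each member. Some listed genes are not reported here. The members and lists were chosen with earlier results of these data known. The grouping by span and exon edge was chosen after isoform values were seen, as were the genes shown beside TOPORS in the order of median ratios. Alternatives were other pseudocounts, scalings, filters and references, removal of a quadratic length and GC trend, and leaving out each G library.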

Additional observations from a re-analysis of the deposited data

How the results depend on the processing

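The median log2 ratio of TOPORS (2.84) and of TOP2A (2.34) stayed above 1 under each setting except a change of reference. With the median of the other 6 libraries in place of the control it was 0.064 for TOPORS, 0.20 for TOP2A and 0.080 for TOP2B, and TOP2A in G3 (-2.01) and G5 (-0.40) and TOPORS in G3 (-0.91) and G5 (-0.13) turned negative, because the control then counts as 1 of 6. Reference isoforms alone gave 2.85 for TOP2A and -0.71 for TOP1. Dropping isoforms under a mean of 1 TPM gave 2.85 for TOP2A. Full-span isoforms alone, a setting chosen after seeing the data, gave -0.73 for TOP1 and 0.19 for TOP2B. Removal of the length and GC trend gave -0.21 for TOP1. Rescaling by the median of ratios shifted log2 ratios by 0.14 in G12, 0.16 in G13 and 0.11 in G14, and changed no direction of TOPORS or TOP2A. Leaving out each G library in turn moved no median beyond counting error.

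The number of genes at least 2-fold from the control was, in the order G3, G5, G11, G12, G13, G14, 554, 840, 874, 735, 1229 and 1799. With a mean TPM of at least 20 it was 319, 552, 458, 277, 526 and 1109. With the trend removed it was 209, 249, 331, 310, 672 and 912. With a mean TPM of at least 1 it reached 1378 in G11, 1267 in G12 and 2022 in G13. The full-span shares of the 4 genes stayed within counting error with a narrower and a wider window, also chosen after seeing the data, as were the settings for lists. Of the list medians, rescaling by the median of ratios gave 0.30 for the G2 and mitosis genes. Removal of the trend gave 0.023 for the other topoisomerases and 0.065 for the partners of TOPORS. For the neighbours of TOPORS it gave -0.53, which rests on NDUFB6 alone, the only neighbour compared. The cause of these differences was not tested. No paired analysis was possible because each group has 1 library. Depth limits TOPORS and TOP2A in the control most, with 45 and 73 reads.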
